A study of Homo sapiens with 9 samples.

Results

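The comparison described here sets 3 libraries of cells given the second siRNA against PVRL4 (siRNA 2) against 3 libraries of cells given the first (siRNA 1). It covers the 11157 genes, of 20812 in the deposited table, whose level averaged 1 RPM or more over these 6 libraries (RPM, reads scaled to the library's total), and the libraries are paired by their replicate number. All cells were SKBR3, an established human breast cancer line with an amplified ERBB2 (HER2) gene. Each sample received 10 nM siRNA in a lipid transfection reagent for 48 h, so the siRNAs were compared at a matched dose and time. A further 3 libraries received a non-targeting control siRNA at the same dose and time, and their level stands beside each gene given with a value, as the mean ± SD (n = 3) after the word control where the difference alone is given. Per the labels, both PVRL4 siRNAs came from Integrated DNA Technologies and the control (ON-TARGETplus) from Horizon Discovery, so supplier does not differ between the siRNAs compared here. No siRNA sequence is given in the sources used here.

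PVRL4 encodes nectin-4, an immunoglobulin-like adhesion molecule that joins neighbouring epithelial cells and against which an antibody-drug conjugate has been made. A siRNA is loaded into an Argonaute protein and directs cleavage of the matching messenger RNA, and through its seed bases it can also lower transcripts with partial matches. Double-stranded RNA in a cell can be read by RIG-I-like receptors, PKR and the oligoadenylate synthetases. Interferon made in response acts through JAK kinases and STAT proteins with IRF9 on genes that carry an interferon-stimulated response element in their promoters.

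The 9 libraries held 10017130 to 10707777 reads, with 0.0934 to 0.0998 RPM per read. Libraries of a group differed by more than counting noise (chi-square per degree of freedom 8.90 to 23.9 for genes averaging 10 reads or more). Of 10 luminal breast cancer markers, 9 had a mean of 1 RPM or more. The exception was CDH1, the E-cadherin gene, at 0 to 0.093 RPM. Their summed level was 12708.5 to 13432 RPM with siRNA 1, 10941 to 11808 RPM with siRNA 2 and 13128 to 13822 RPM in control. Of 11 leukocyte markers, 10 were under 1 RPM in mean and PTPRC, CD3D and MS4A1 were at 0 in all 9 libraries. The summed leukocyte level was 4.83 to 8.04 RPM with siRNA 1 and 6.11 to 12.3 RPM with siRNA 2, most of it CSF1R. Fibroblast markers summed to at most 7.66 RPM and endothelial markers to at most 10.3 RPM in any library. In bulk RNA fewer cells of a kind and less RNA per cell cannot be told apart.

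PVRL4 was lower with siRNA 2 than with siRNA 1, and lower with either than in control. It measured 9.93, 7.86 and 11.6 RPM in the control, 5.99, 4.36 and 4.67 RPM in the siRNA 1 and 3.39, 2.91 and 2.58 RPM in the siRNA 2 libraries. These levels rest on 62, 45 and 50 reads with siRNA 1 and 34, 30 and 27 reads with siRNA 2. The highest siRNA 2 library lay below the lowest siRNA 1 library, and the highest siRNA 1 library lay below the lowest control library. The siRNA 2 mean was 59.1% of the siRNA 1 mean, a difference of -0.60 on the log2(RPM + 1) scale (95% confidence interval -0.96 to -0.23). That passed the threshold of 0.05 in limma with the replicate block (adjusted p = 0.0384) and missed it without the block (0.126), by edgeR (0.0542) and by DESeq2 (0.140). It was also lost without siRNA 1 replicate 1 (0.165), 2 (0.0965) or 3 (0.0905) or siRNA 2 replicate 1 (0.0872), 2 (0.0531) or 3 (0.164), the adjusted p standing in brackets. An exact two-sided permutation test of 3 against 3 libraries gave p = 0.1, the smallest it allows. The log2 difference from control was -0.84 with siRNA 1 (limma adjusted p = 0.0133) and -1.44 with siRNA 2 (0.000165).

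Of the other nectin family genes PVRL2 was lower with siRNA 2, and PVR and PVRL1 did not pass the test. PVRL2 (chromosome 19, 44846175 to 44889228 in GRCh38; NECTIN2 in current annotation), which encodes nectin-2, measured 32.5, 36.5 and 35.7 RPM in the control, 37.9, 34.6 and 33.9 RPM in the siRNA 1 and 13.6, 16.7 and 10.9 RPM in the siRNA 2 libraries. The siRNA 1 and control ranges overlapped and the 3 siRNA 2 libraries lay below both, a difference of -1.33 (limma adjusted p = 8.40e-06). PVR, the poliovirus receptor gene, measured 117, 111 and 101 RPM in the control, 106, 117 and 97.97 RPM in the siRNA 1 and 121, 117 and 107 RPM in the siRNA 2 libraries. Its groups overlapped, with a log2 difference of 0.10 (95% interval -0.07 to 0.28, adjusted p = 0.49). PVRL1, the nectin-1 gene, measured 30.5, 36.2 and 31.01 RPM with siRNA 1, 41.7, 36.3 and 26.3 RPM with siRNA 2 and 37.2, 35.7 and 32.1 RPM in control. Those values overlapped as well (log2 difference 0.07, adjusted p = 0.771). PVRL3 had at most 0.200 RPM in any library, under the floor of 3 reads (0.280 to 0.299 RPM), and was not tested. Of the 12 tested genes of the nectin and adherens junction list, 3 were lower and 0 higher with siRNA 2: PVRL4, PVRL2 and VCL, the vinculin gene (2.23 ± 0.16 RPM with siRNA 1, 0.812 ± 0.151 RPM with siRNA 2 and 1.41 ± 0.376 RPM in control, SD, n = 3; log2 difference -0.84). VCL lost the call without siRNA 1 replicate 1 (0.108) or 3 (0.0911) or siRNA 2 replicate 1 (0.0528), 2 (0.0639) or 3 (0.0809). The share of the list that was lower was 25.0%, beside 6.55% over all genes tested. That count includes PVRL4, the target of both siRNAs. It also includes VCL, which averaged under 1 RPM with siRNA 2 and passed the level filter through siRNA 1. The list had 1 lower gene without siRNA 1 replicate 1 or 3 or any 1 siRNA 2 library, and 2 without siRNA 1 replicate 2.

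**Figure D1:**
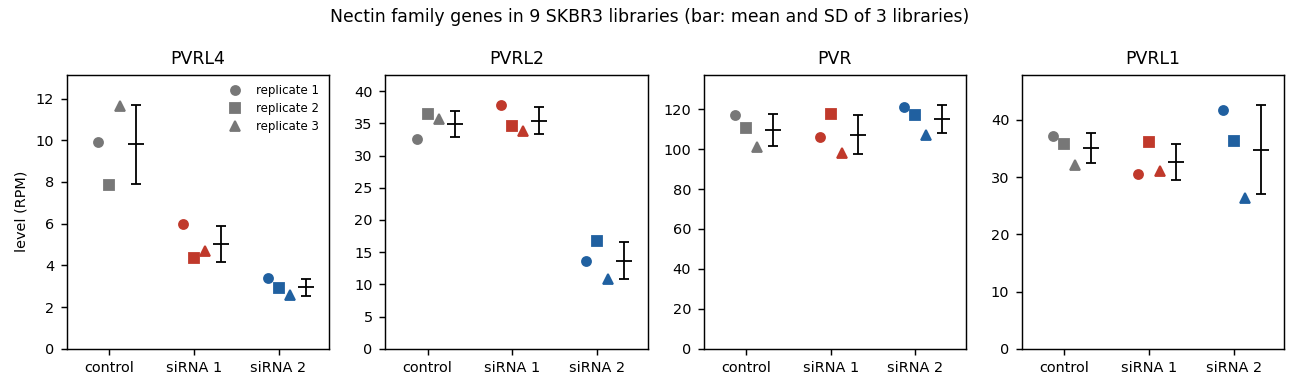
Level in RPM (y axis, from 0) of PVRL4, PVRL2, PVR and PVRL1 in control, siRNA 1 and siRNA 2 libraries; each point is a library, its shape the replicate number, and the bar is the mean and SD of 3. PVRL4 steps down from control to siRNA 1 to siRNA 2, PVRL2 is low in the siRNA 2 libraries, and the groups overlap for PVR and PVRL1.

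Across all genes the siRNAs gave different profiles, and most differences were lower levels with siRNA 2. In limma with the replicate block, 314 genes (2.81% of the 11157 tested) were higher with siRNA 2 and 731 (6.55%) lower, 9.37% in either direction, at a Benjamini-Hochberg adjusted p under 0.05. The median size of a called difference was 0.43 for higher genes and -0.57 for lower genes in log2(RPM + 1), where the added 1 shrinks the change of genes near 1 RPM. A difference over 1 was seen for 3 higher and 114 lower genes. The 3 siRNA 2 libraries did not overlap the 3 siRNA 1 libraries for 7.04% (higher) and 12.6% (lower) of all genes, and for 256 of the 314 and 630 of the 731 called. The calls were made on the same libraries, so the counts among called genes are no separate support.

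The replicate block and single libraries moved the number of genes called, and scaling moved the split between higher and lower. Without the replicate block 66 genes (0.592%) were higher and 276 (2.47%) lower. Higher genes made up 30.05% of the calls on the values as deposited, and 42.7%, 40.7% and 44.9% with median-of-ratios, TMM and quantile scaling (445 and 597, 420 and 611, and 449 and 550 genes, totals close to the 1045 of the values as deposited). The counts moved by over 1.5 times when some libraries were left out. Dropping siRNA 1 replicate 1 left 142 higher and 406 lower genes. Dropping siRNA 1 replicate 3 left 124 and 381. The higher genes were also fewer, at 191, when siRNA 1 replicate 2 was left out, and at 179 when siRNA 2 replicate 1 was. Under all 12 other settings and with each of the 9 libraries left out in turn, 43 higher and 204 lower genes kept their call.

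**Figure D2:**
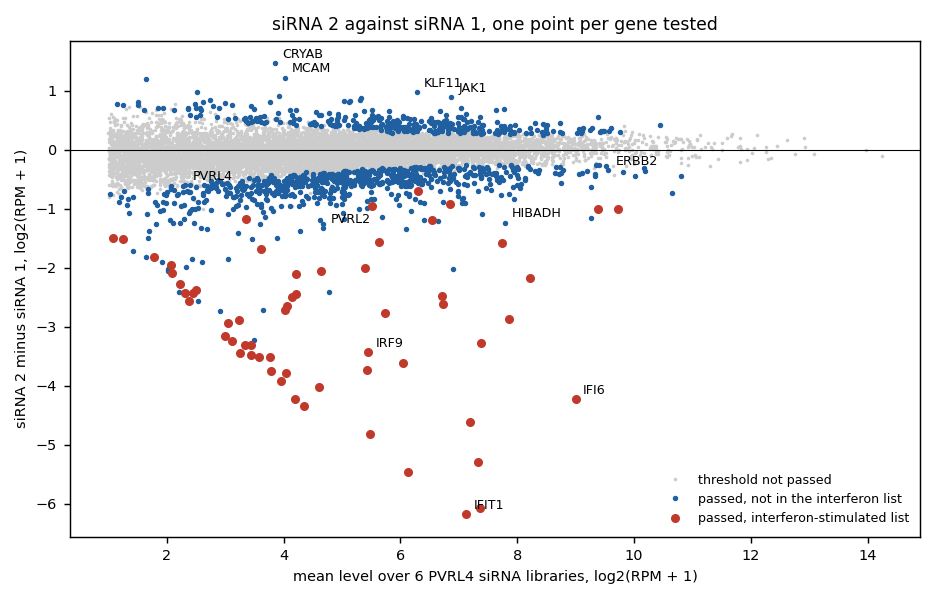
Log2 difference, siRNA 2 minus siRNA 1 (y axis), against the mean level over the 6 libraries (x axis), both on log2(RPM + 1), for the 11157 genes tested. Red points, the called genes of the interferon-stimulated list, reach -6.17 at IFIT1; the called genes outside it (blue) mostly lie within 1 of zero, with CRYAB the highest at 1.47.

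The control level was set beside each called difference. For each called gene the control mean was placed nearer the siRNA 1 mean or nearer the siRNA 2 mean on the log2 scale, as a description with no test. Of the 731 lower genes, the control mean lay nearer siRNA 1 for 481 and nearer siRNA 2 for 250. Of the 314 higher genes it lay nearer siRNA 1 for 140 and nearer siRNA 2 for 174. Over all tested genes the split was 6184 and 4973. The control mean lay between the siRNA means for 251 of the 314 and 499 of the 731. Differences from control given below are from the same fit. Those contrasts share their libraries with the comparison of the siRNAs and are given side by side only. Against control, 1.19% of genes were higher and 0.681% lower with siRNA 1, and 0.457% and 2.95% with siRNA 2.

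Interferon-stimulated genes were lower with siRNA 2 than with siRNA 1, and their control levels lay near those of siRNA 2. Of the 63 tested genes of a 64-gene interferon list, 59 were lower with siRNA 2 and 0 higher (52 without the block), against 6.55% lower among all genes. The median log2 difference was -2.61, beside -0.04 over all genes tested. Of the 63, 26 averaged 1 RPM or more with siRNA 1 and less with siRNA 2, so they passed the level filter through the group in which they were high. Among the 33 with a control mean of 1 RPM or more, a level the filter did not use, 29 were lower and 0 higher (median -2.10), against 6.21% lower of the 10990 such genes in all. The promoters of 4 of these genes are shown, chosen because the motif that the complex of STAT proteins and IRF9 is known to bind sits in each. The sequences are from RefSeq (GRCh38.p14), 250 bases before to 50 after the start, and capitals mark the core motif GAAANNGAAA on either strand, where neighbouring matches may overlap.
IFIT1, chr10:89392373-89392672, plus strand: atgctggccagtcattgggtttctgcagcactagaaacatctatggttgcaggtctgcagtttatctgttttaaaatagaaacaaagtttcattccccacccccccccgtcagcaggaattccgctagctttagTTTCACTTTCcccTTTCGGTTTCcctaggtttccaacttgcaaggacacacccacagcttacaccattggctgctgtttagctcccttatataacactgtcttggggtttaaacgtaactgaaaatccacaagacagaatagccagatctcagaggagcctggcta
ISG15, chr1:1013247-1013546, plus strand: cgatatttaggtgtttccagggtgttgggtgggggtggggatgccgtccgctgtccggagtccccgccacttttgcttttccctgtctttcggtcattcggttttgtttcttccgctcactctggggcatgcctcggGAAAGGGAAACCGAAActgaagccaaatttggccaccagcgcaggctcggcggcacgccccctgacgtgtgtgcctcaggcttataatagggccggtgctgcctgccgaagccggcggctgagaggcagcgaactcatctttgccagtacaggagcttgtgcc
IFI6, chr1:27672143-27672442, minus strand: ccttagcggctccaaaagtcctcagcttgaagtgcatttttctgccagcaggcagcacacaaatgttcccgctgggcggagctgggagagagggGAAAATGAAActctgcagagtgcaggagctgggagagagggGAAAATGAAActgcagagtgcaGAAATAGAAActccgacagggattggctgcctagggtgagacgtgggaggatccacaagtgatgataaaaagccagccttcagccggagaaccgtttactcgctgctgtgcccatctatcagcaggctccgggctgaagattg
IFI27, chr14:94110486-94110785, plus strand: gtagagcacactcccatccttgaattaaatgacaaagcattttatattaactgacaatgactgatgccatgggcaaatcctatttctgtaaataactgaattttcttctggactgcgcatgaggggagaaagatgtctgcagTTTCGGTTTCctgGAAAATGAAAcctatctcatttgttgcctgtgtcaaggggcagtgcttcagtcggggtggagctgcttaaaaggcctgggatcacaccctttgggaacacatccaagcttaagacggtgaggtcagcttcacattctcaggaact
The matches start 116, 113, 156 and 108 bases before the RefSeq start on which each window is placed, counting the first match in it. That start need not be the first base of the gene span given below, and for ISG15 it lies well inside the span. Of other named members, OAS1 and IRF9 had no match in their windows, and the match of MX1 lay after the start. Of the tested genes, 8326 had a promoter in that table, and 2.79% of those held the motif on either strand (3.65% of all 27305 promoters). The share was 60.4% for the interferon list (29 of 48), 24.9% for lower genes whose control level was nearer siRNA 2 (47 of 189) and 2.96% for lower genes whose control level was nearer siRNA 1 (11 of 372). Among higher genes it was 0.431% (1 of 232). A match is a description of the sequence and does not show binding.

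Of the genes with these promoters, IFIT1 and IFI27 were at most 0.394 RPM in control and all 4 were abundant with siRNA 1. IFIT1 (chromosome 10, 89392546 to 89406486, GRCh38), which encodes a protein that binds foreign RNA, measured 0, 0.095 and 0.197 RPM in the control, 587, 46.1 and 192 RPM in the siRNA 1 and 0.599, 0.291 and 5.92 RPM in the siRNA 2 libraries. Every siRNA 1 library lay above every siRNA 2 library. The log2 difference was -6.17 (95% interval -7.29 to -5.06, limma adjusted p = 3.50e-06). ISG15 (chromosome 1, 1001138 to 1014540), a ubiquitin-like modifier, measured 2.39, 2.65 and 3.06 RPM in the control, 624, 64.2 and 253 RPM in the siRNA 1 and 2.50, 3.10 and 10.97 RPM in the siRNA 2 libraries. Its difference was -5.29 (adjusted p = 3.98e-06), with siRNA 2 replicate 3 the highest of the siRNA 2 libraries. IFI6 (chromosome 1, 27666061 to 27672218), a small mitochondrial membrane protein gene, was expressed in control and measured 24.4, 32.97 and 26.8 RPM in the control, 1766, 315 and 863 RPM in the siRNA 1 and 30.7, 38.3 and 57.6 RPM in the siRNA 2 libraries. It differed by -4.23 (adjusted p = 3.49e-06). IFI27 measured 0.095, 0 and 0.394 RPM in the control, 73.5, 12.01 and 29.3 RPM in the siRNA 1 and 0.1, 0.581 and 1.05 RPM in the siRNA 2 libraries. The difference was -4.34, and no siRNA 2 library exceeded 1.05 RPM.

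MX1, a dynamin-like GTPase gene that restricts viruses, measured 0.382, 0.284 and 0.394 RPM in the control, 703, 49.8 and 222 RPM in the siRNA 1 and 0.599, 0.678 and 8.68 RPM in the siRNA 2 libraries. The siRNA groups were separate (log2 difference -6.08, limma adjusted p = 7.71e-06), and siRNA 2 replicate 3 stood above the other libraries given siRNA 2. IFIT2 measured 206, 6.97 and 47.3 RPM with siRNA 1, 0.1, 0 and 2.29 RPM with siRNA 2 and 0, 0.284 and 0 RPM in control (-4.81). IFI44 had 66.5, 5.81 and 30.2 RPM with siRNA 1, 0, 0.388 and 0.572 RPM with siRNA 2 and was listed at 0 in the 3 controls. The antiviral genes SAMD9 (-4.01, control 0.48 ± 0.414 RPM), TRIM22 (-3.78, control 0.192 ± 0.19 RPM) and OASL (-3.74, control 0.127 ± 0.11 RPM) and the pro-apoptotic XAF1 (-3.92, control 0.0317 ± 0.0548 RPM) were lower too, with limma adjusted p of 1.29e-05 to 0.000112. For SAMD9, TRIM22, OASL, XAF1, MX1 and IFIT1, a lack of overlap between the siRNA groups was a condition for being named. IFIT1, ISG15, IFI6, IFI27, MX1, IFIT2, IFI44, SAMD9, TRIM22, OASL and XAF1 kept their calls under the 12 other settings and with each of the 9 libraries left out. The 4 list members that missed the threshold were ISG20 (-0.43, control 16.8 ± 1.20 RPM, adjusted p = 0.182), GBP1 (-0.96, control 5.71 ± 1.17 RPM, adjusted p = 0.0513), GBP2 (-0.20, control 5.97 ± 2.96 RPM, adjusted p = 0.507) and PSMB9 (-0.85, control 1.22 ± 0.223 RPM, adjusted p = 0.0759).

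The size of this difference varied between the pairs. The median list difference was -4.07 in pair 1, -1.40 in pair 2 and -2.48 in pair 3, with 63, 60 and 63 of 63 members negative. Summed over the tested members, the list reached 13198, 3659 and 7085 RPM in siRNA 1 replicates 1, 2 and 3. It was 1812, 1896 and 1579 RPM with siRNA 2, and 1639, 1799.9 and 1564 RPM in control. Within the siRNA 1 group, replicate 1 was the highest for 61 of the 63 members. Within the siRNA 2 group, replicate 3 was the highest for 37, and 40 members in it lay above all 3 controls, against 24 in replicate 1 and 26 in replicate 2. The summed level of siRNA 2 replicate 3 was nevertheless the lowest of its group. LGALS3BP, the member with the highest control level, measured 526, 611 and 457 RPM in the control, 1387, 892 and 1036 RPM in the siRNA 1 and 667, 746 and 320.1 RPM in the siRNA 2 libraries.

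**Figure D3:**
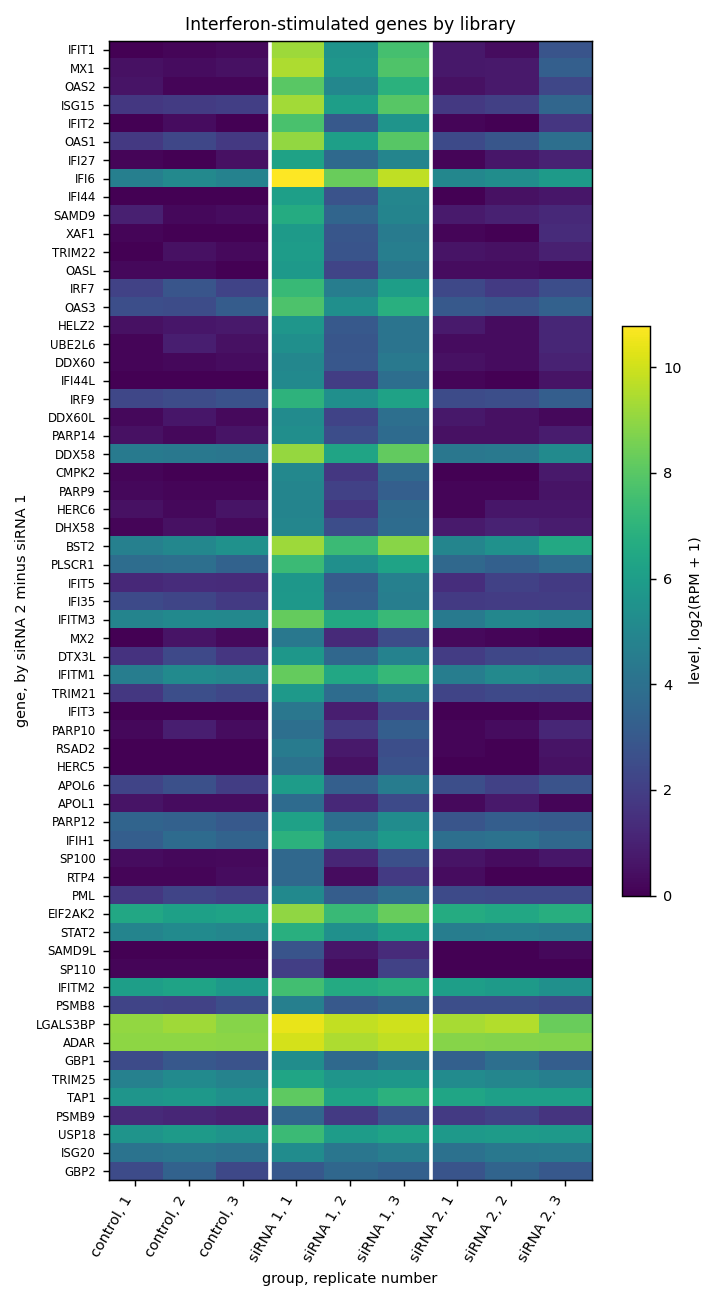
Level, log2(RPM + 1) (colour), of 62 of the 63 tested members of the interferon-stimulated list (rows, ordered by the difference between the siRNAs) in 9 libraries (columns, group and replicate number). The 3 siRNA 1 columns are brighter than the others for nearly all rows, most in replicate 1 and least in replicate 2, and siRNA 2 replicate 3 is slightly brighter than the control columns in the upper rows.

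Most sensors of double-stranded RNA were also lower with siRNA 2. Of 17 tested genes of this list 10 were lower (58.8%, beside 6.55% over all genes) and 0 higher with siRNA 2 (9 without the block), with a median of -0.95. Of those 10, 8 stand in the interferon list too. DDX58, which encodes the cytosolic sensor RIG-I, measured 20.6, 18.9 and 17.7 RPM in the control, 542, 78.9 and 293 RPM in the siRNA 1 and 18.6, 19.7 and 34.5 RPM in the siRNA 2 libraries. The siRNA 1 libraries lay above all others (-3.26, limma adjusted p = 2.81e-05). IFIH1, the gene of the related sensor MDA5, measured 121, 29.2 and 54.2 RPM with siRNA 1, 14.2, 15.99 and 11.4 RPM with siRNA 2 and 8.21, 12.6 and 9.86 RPM in control (adjusted p = 0.000643). EIF2AK2, the gene of the kinase PKR, measured 87.5, 68.7 and 75.9 RPM in the control, 504, 159 and 314 RPM in the siRNA 1 and 97.8, 87.02 and 109 RPM in the siRNA 2 libraries. Its siRNA 1 libraries lay above all others, and its difference was -1.58 (adjusted p = 6.37e-05). The synthetase genes OAS1, OAS2 and OAS3, whose products sense double-stranded RNA, differed by -4.62, -5.46 (control 0.224 ± 0.219 RPM) and -3.61 (control 5.86 ± 1.76 RPM). OAS1 was at 524, 66.7 and 249 RPM with siRNA 1, 4.29, 6.40 and 14.4 RPM with siRNA 2 and 2.48, 3.98 and 2.46 RPM in control. Downstream, TBK1 (-0.09, control 116 ± 11.4 RPM, adjusted p = 0.648) and IRF3 (-0.09, control 78.4 ± 2.73 RPM, adjusted p = 0.587), the kinase and transcription factor that act after the sensors, did not pass. IFIH1, TBK1, IRF3 and LGALS3BP were named here after their values were seen.

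Genes of the interferon signal chain went in both directions. Of 17 tested receptor and JAK-STAT genes, 9 were lower and 2 higher with siRNA 2 (4 and 1 without the block; 1 higher without siRNA 1 replicate 2 or 3 or siRNA 2 replicate 2 or 3; 5 of the called genes stand in the interferon list; median -0.38). The shares were 52.9% lower and 11.8% higher, beside 6.55% and 2.81% over all genes tested. The transcription factor genes IRF9, STAT2 and IRF7 were lower. IRF9 (chromosome 14, 24161053 to 24166565) measured 3.91, 4.74 and 5.62 RPM in the control, 125, 40.8 and 72.3 RPM in the siRNA 1 and 4.59, 4.94 and 8.30 RPM in the siRNA 2 libraries, a difference of -3.43 (limma adjusted p = 1.73e-06) with separate groups. STAT2 differed by -1.57 (control 31.03 ± 3.36 RPM) and IRF7, an amplifier of interferon transcription, by -3.74 (control 4.38 ± 1.63 RPM). The kinase gene JAK1 (chromosome 1, 64833229 to 64966504) went the other way. It measured 159, 141 and 142 RPM in the control, 72.5, 84.8 and 86.2 RPM in the siRNA 1 and 146, 154 and 153 RPM in the siRNA 2 libraries. All 3 siRNA 1 libraries lay below all others, while siRNA 2 and control shared a range, and the difference was 0.89 (95% interval 0.70 to 1.08, adjusted p = 1.61e-05). IL10RB, a shared receptor chain gene, was lower with siRNA 2 (45.7 ± 3.08 RPM with siRNA 1, 31.5 ± 6.75 RPM with siRNA 2 and 46.2 ± 6.99 RPM in control, SD, n = 3; -0.54, adjusted p = 0.00346, 0.0911 without the block).

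Antigen presentation genes had smaller differences. Of 18 tested, 5 were lower (27.8%, beside 6.55% over all genes) and 0 higher with siRNA 2, 2 of them in the interferon list. Without the block 0 passed. All 18 members were negative in sign (median -0.45). TAP1, a peptide transporter gene, measured 48.5, 52.9 and 41.3 RPM in the control, 274, 75.4 and 120.1 RPM in the siRNA 1 and 79.3, 67.4 and 67.5 RPM in the siRNA 2 libraries. Its siRNA 2 libraries lay above all control libraries and the lowest siRNA 1 library lay below the highest siRNA 2 library (-0.92, limma adjusted p = 0.0187). NLRC5, the class I transactivator gene (-1.86, control 0.577 ± 0.162 RPM, adjusted p = 0.00307), and PSMB8, an immunoproteasome subunit gene (-1.18, control 3.92 ± 0.8 RPM, adjusted p = 0.0079), also passed, as did HLA-E (-0.38, control 189 ± 4.85 RPM, adjusted p = 0.0417) and HLA-B (-1.37, control 0.323 ± 0.205 RPM, adjusted p = 0.0426). HLA amplicons can share sequence with close paralogs and are uncertain. TAP1 lost the call without siRNA 1 replicate 1 (0.0972) or 3 (0.0753) or siRNA 2 replicate 1 (0.114), PSMB8 without siRNA 1 replicate 1 (0.0625) or siRNA 2 replicate 1 (0.0609), HLA-E without control replicate 1 (0.0511), 2 (0.0542) or 3 (0.0527) or siRNA 1 replicate 1 (0.32) or 3 (0.103) or siRNA 2 replicate 1 (0.189) or 3 (0.112), and HLA-B without control replicate 1 (0.0617), 2 (0.0544) or 3 (0.0533) or siRNA 1 replicate 1 (0.297) or 3 (0.128) or siRNA 2 replicate 1 (0.233) or 3 (0.129). HLA-E also lost the call with median-of-ratios (0.071) or TMM scaling (0.0657), by edgeR (0.0636) and by DESeq2 (0.062), and TAP1 by DESeq2 (0.158). The list had 10 lower members without siRNA 1 replicate 2, 1 without siRNA 1 replicate 1 or siRNA 2 replicate 1, 2 without siRNA 1 replicate 3 and 3 without any 1 control library. Of the 18, 3 reached a mean of 1 RPM with siRNA 1 but not with siRNA 2, and 3 of the 15 with a control mean of 1 RPM or more were lower.

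Of 15 NF-kappaB and inflammatory genes, 1 was lower, the chemokine gene CCL5 (25.9, 3.68 and 7.75 RPM with siRNA 1, 0.2, 0.969 and 0.572 RPM with siRNA 2, 0.095, 0.379 and 0.197 RPM in control; -2.74, limma adjusted p = 0.00059). CCL5 averaged 1 RPM or more with siRNA 1 and less with siRNA 2, as did 2 of the 15 in all. Of the 12 with a control mean of 1 RPM or more, 0 were lower. The 1 of 15 (6.67%) was close to the 6.55% lower over all genes tested. The other call was NFKB2, higher by 0.32 (control 70.1 ± 5.97 RPM, adjusted p = 0.042), which was lost without control replicate 1 (0.0551), 2 (0.0527) or 3 (0.0618) or siRNA 1 replicate 2 (0.174) or 3 (0.231) or siRNA 2 replicate 2 (0.125) or 3 (0.162). Of 20 apoptosis genes 5 were lower (25.0%) and 0 higher (3 without the block), XAF1 of the interferon list included, and 3 of the 18 with a control mean of 1 RPM or more were lower. Among the 5 was TNFSF10, the gene of the death ligand TRAIL, at 11.9, 1.06 and 4.39 RPM with siRNA 1, 0.1, 0 and 0.859 RPM with siRNA 2 and 0.191, 0.095 and 0.197 RPM in control (-2.04). MCL1, an anti-apoptotic BCL2 family gene, measured 132, 144 and 119 RPM in the control, 212, 154 and 149 RPM in the siRNA 1 and 82.7, 102 and 103 RPM in the siRNA 2 libraries. The siRNA groups were separate and control lay between them (-0.82, adjusted p = 0.000643). BCL2L11, the gene of the pro-apoptotic protein BIM, differed by -0.58 (control 16.5 ± 1.12 RPM) and lost the call without siRNA 1 replicate 2 (0.0686) or siRNA 2 replicate 2 (0.0903); BIRC2, an inhibitor of apoptosis gene, differed by -0.39 (control 64.9 ± 3.24 RPM) and lost it without siRNA 1 replicate 1 (0.138) or 3 (0.148) or siRNA 2 replicate 1 (0.0977) or 3 (0.0501).

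Outside the 4 interferon-related lists, 185 lower genes had a control level nearer siRNA 2, with a median difference of -0.62. Outside the interferon list alone there were 191 such genes. Of the 144 of these 191 with a promoter, 20 (13.9%) held the motif, beside 2.79% of all tested genes with a promoter. The lists were written by hand and are not complete, so genes outside them may also respond to interferon, which was not tested. Of the 185, 35 differed by over 1, and those named here are the 10 of largest difference that averaged 10 RPM or more with no overlap of the siRNA groups. TRANK1 led these (40.1, 2.71 and 16.8 RPM with siRNA 1, 0.399, 0.291 and 0.859 RPM with siRNA 2, 0.477, 0.663 and 0.197 RPM in control; -3.22, limma adjusted p = 0.000415). LGALS9, the galectin-9 gene, differed by -2.71 (control 0.837 ± 0.22 RPM) and SAMHD1, a nucleotide hydrolase gene that restricts viruses, by -2.40 (control 7.42 ± 1.17 RPM). ZNFX1, a helicase gene, measured 69.4, 81.9 and 71.1 RPM in the control, 319, 118 and 145 RPM in the siRNA 1 and 34.5, 53.2 and 41.98 RPM in the siRNA 2 libraries. Its siRNA 1 libraries lay above control and its siRNA 2 libraries below it (-2.02). The others named were SP140L (-1.50, control 3.91 ± 0.499 RPM), the mucin gene MUC15 (-1.50, control 8.27 ± 2.22 RPM), the ubiquitin ligase genes TRIM38 (-1.37, control 9.26 ± 1.19 RPM) and TRIM56 (-1.26, control 15.7 ± 2.92 RPM), RARRES3 (-1.13, control 35.6 ± 5.30 RPM) and the transcription factor gene CEBPD (-1.06, control 7.77 ± 2.02 RPM). TRANK1, under 1 RPM in every siRNA 2 and control library, passed the level filter through the siRNA 1 group in which it was high. With siRNA 2, TRANK1, LGALS9, SAMHD1, SP140L, MUC15, TRIM38 and CEBPD averaged under 10 RPM. They reached that level for naming through siRNA 1. Each of the 10 named genes kept its call with each library left out. Of the 191 such genes outside the interferon list alone, siRNA 1 replicate 1 was the highest of its group for 131 and replicate 2 the lowest for 101.

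The next genes were lower with siRNA 2 and had a control mean nearer siRNA 1. AIDA (chromosome 1, 222668013 to 222713210), an inhibitor gene of JNK signalling, measured 81.5, 77.8 and 89.3 RPM in the control, 103, 89.8 and 97.97 RPM in the siRNA 1 and 32.8, 42.5 and 37.9 RPM in the siRNA 2 libraries. Its siRNA 2 libraries lay below all others, a difference of -1.34 (95% interval -1.57 to -1.12, limma adjusted p = 2.25e-06). HIBADH (chromosome 7, 27525442 to 27662995), an enzyme gene of valine breakdown, measured 307, 329.7 and 348 RPM in the control, 247, 332 and 337 RPM in the siRNA 1 and 85.3, 150.1 and 164 RPM in the siRNA 2 libraries. It differed by -1.23, and siRNA 2 replicate 1 was the lowest library. MPHOSPH6 (chromosome 16, 82147798 to 82170226), an RNA exosome cofactor gene, measured 123, 145 and 135 RPM in the control, 129, 152 and 132 RPM in the siRNA 1 and 49.9, 74.9 and 55.7 RPM in the siRNA 2 libraries. Replicate 2 was the highest library of each group, and the siRNA 2 libraries lay below all others (-1.20, adjusted p = 1.73e-06). SLC25A24 (chromosome 1, 108134036 to 108200849), a mitochondrial ATP-Mg carrier gene, measured 124, 117 and 108 RPM in the control, 117, 107 and 126 RPM in the siRNA 1 and 50.1, 44.9 and 56.8 RPM in the siRNA 2 libraries. The siRNA 1 and control ranges coincided (-1.19).

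Other such genes were the protease gene TMPRSS2 (-1.18, control 25.9 ± 4.15 RPM), the ubiquitin ligase adaptor gene KLHDC5 (-1.14, control 15.2 ± 3.14 RPM), the DNA repair enzyme gene TDP1 (-1.07, control 36.9 ± 1.23 RPM) and LCLAT1, an acyltransferase gene of cardiolipin and phosphatidylinositol (-1.04, control 102 ± 1.95 RPM). Their limma adjusted p were 1.21e-05 to 0.000138. The metallothionein gene MT2A, whose product binds zinc and copper, lay on opposite sides of control with the siRNAs. It measured 671, 578 and 510.4 RPM in the control, 1086, 806 and 661 RPM in the siRNA 1 and 442, 407 and 287 RPM in the siRNA 2 libraries. In every pair siRNA 2 was lowest and siRNA 1 highest, with a log2 difference of -1.16 between the siRNAs (adjusted p = 1.73e-06), 0.52 for siRNA 1 against control (0.00271) and -0.64 for siRNA 2 against control (0.000447). The 478 lower genes outside the 4 lists with control nearer siRNA 1 had a median difference of -0.53, and 21 of them were over 1.

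**Figure D4:**
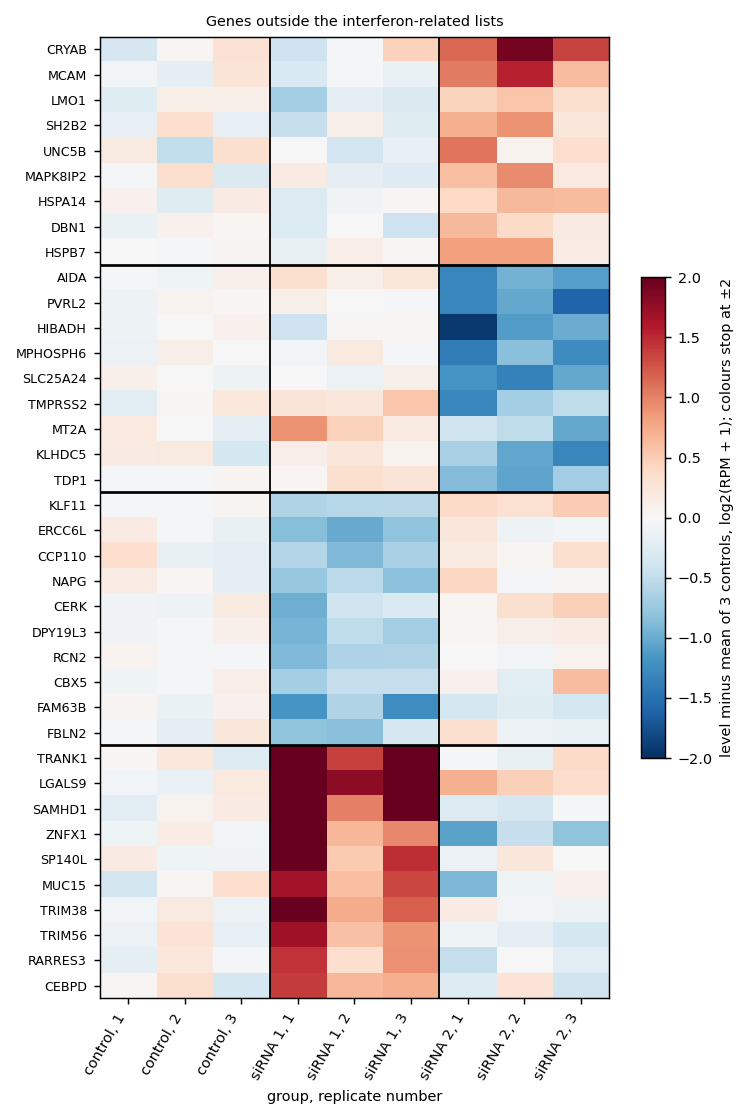
Level minus the mean of the 3 controls on log2(RPM + 1) (colour, stopping at ±2) for 38 genes outside the interferon-related lists (rows) in 9 libraries (columns). From the top, the 4 blocks hold the genes higher and the genes lower with siRNA 2 whose control level was nearer siRNA 1, then those higher and those lower whose control level was nearer siRNA 2; by that choice the siRNA 2 columns are the more coloured in the upper pair of blocks and the siRNA 1 columns in the lower pair.

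Lower genes with siRNA 2 included some that respond early to growth factor signalling or feed back on the kinase ERK. Of 15 tested genes of that list 8 were lower (53.3%, beside 6.55% over all genes) and 0 higher (3 without the block), with a median of -0.53. Among the 8, SPRY4 averaged 1 RPM or more with siRNA 1 and less with siRNA 2, so it passed the level filter through siRNA 1. All 15 had a control mean of 1 RPM or more, a level the filter did not use. EGR1, an early transcription factor gene, measured 6.68, 8.15 and 5.72 RPM in the control, 8.79, 9.10 and 9.71 RPM in the siRNA 1 and 5.09, 5.52 and 4.29 RPM in the siRNA 2 libraries. The siRNA groups were separate with control between them, a difference of -0.78 (limma adjusted p = 0.0046), lost without siRNA 1 replicate 3 (0.0585). DUSP4, an ERK phosphatase gene, measured 50.8, 99.5 and 57.1 RPM in the control, 51.3, 91.3 and 61.5 RPM in the siRNA 1 and 31.1, 77.2 and 38.7 RPM in the siRNA 2 libraries. Its groups overlapped, with replicate 2 the highest in all 3, and siRNA 2 was lower in each pair (-0.53, adjusted p = 0.00335, 0.454 without the block). IER3 (-0.53, control 105 ± 12.7 RPM) and SPRED1, a RAS pathway inhibitor gene (-0.58; 20.96, 21.1 and 20.8 RPM with siRNA 1, 12.8, 16.2 and 12.3 RPM with siRNA 2 and 16.99, 19.5 and 17.8 RPM in control), kept their calls with each library left out. SPRY2 and ETV4 were the other members called. ZFP36, an mRNA decay factor gene (-0.70, control 12.6 ± 1.12 RPM), lost its call without siRNA 1 replicate 1 (0.204) or 3 (0.127) or siRNA 2 replicate 1 (0.136) or 3 (0.078), and SPRY4 (-0.79, control 2.07 ± 1.51 RPM) without siRNA 1 replicate 1 (0.107) or 3 (0.215) or siRNA 2 replicate 1 (0.0679), 2 (0.122) or 3 (0.115). Of 9 AP-1 family genes 1 was lower, JUNB (23.9, 27.8 and 18.8 RPM in the control, 36.99, 24.98 and 24.5 RPM in the siRNA 1 and 23.1, 21.5 and 9.83 RPM in the siRNA 2 libraries; -0.70, adjusted p = 0.0136). It lost the call without siRNA 1 replicate 1 (0.0633) or 3 (0.129) or siRNA 2 replicate 3 (0.0932) and without the block (0.2). The share of the AP-1 list that was lower was 11.1%. FOSL2 was at 24.1, 23.9 and 16.3 RPM with siRNA 1, 23.4, 20.1 and 16.7 RPM with siRNA 2 and 18.1, 24.1 and 18.7 RPM in control (-0.09, adjusted p = 0.748), and FOS at 1.83, 0.581 and 1.03 RPM, 0.998, 0.872 and 0.763 RPM and 1.34, 1.42 and 0.591 RPM in the same order (-0.15, 0.754); both signs changed with quantile normalization.

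Some luminal epithelial genes were lower with siRNA 2. The summed level of the luminal markers given above was lower too, but it is not a separate observation, as it holds some of the same genes, KRT8 and TFAP2A among them. Of 23 luminal list genes tested, 8 were lower (34.8%, beside 6.55% over all genes) and 1 higher (4.35%, beside 2.81%), with a median of -0.27. The higher gene was MUC1, lost without control replicate 3 or any 1 siRNA library. Without the block 1 was lower, and with median-of-ratios scaling, TMM scaling or edgeR 4 were. KRT8, a keratin gene of luminal cells, measured 1869.8, 2302 and 1788 RPM in the control, 2083, 2235 and 1869 RPM in the siRNA 1 and 1619, 1614 and 1343 RPM in the siRNA 2 libraries. The groups were separate and siRNA 2 was lower in each pair (-0.44, limma adjusted p = 0.00295, 0.0682 without the block). GATA3, a luminal transcription factor gene, measured 35.6, 37.3 and 24.8 RPM in the control, 36.7, 37.4 and 31.8 RPM in the siRNA 1 and 27.95, 23.6 and 16.4 RPM in the siRNA 2 libraries (-0.65, 0.0024, 0.0912 without the block). AGR2, a secretory pathway disulfide isomerase gene, differed by -0.46 (control 162 ± 29.7 RPM, adjusted p = 0.00214, 0.131 without the block) and EHF, an epithelial ETS factor gene, by -0.54 (control 40.96 ± 3.26 RPM, adjusted p = 0.00321, and 0.0333 without the block, where it was the member that passed). TFAP2A (-0.31, control 169.7 ± 6.60 RPM) lost the call without siRNA 1 replicate 1 (0.206) or 2 (0.0612) or siRNA 2 replicate 1 (0.102) or 2 (0.0589). TFAP2A also lost it with median-of-ratios (0.0575) or TMM scaling (0.0508), by edgeR (0.0546) and by DESeq2 (0.0597). ERBB2, the amplified receptor gene, was at 710.2, 871 and 832 RPM in the control, 723, 919 and 887 RPM in the siRNA 1 and 712, 734 and 549 RPM in the siRNA 2 libraries. Its siRNA groups overlapped, the members of pair 1 being nearly equal. The difference of -0.35 stood at the threshold (adjusted p = 0.0473, 0.203 without the block) and was lost without control replicate 1 (0.0639), 2 (0.0607) or 3 (0.0573) or siRNA 1 replicate 2 (0.115) or 3 (0.289) or siRNA 2 replicate 2 (0.118) or 3 (0.231). ERBB2 also lost the call with median-of-ratios (0.0772) or TMM scaling (0.0745), by edgeR (0.0777) and by DESeq2 (0.0691). ERBB3, its partner receptor gene, was at 131 ± 21.1 RPM with siRNA 1, 150.3 ± 20.5 RPM with siRNA 2 and 153 ± 21.1 RPM in control (SD, n = 3) and had a difference of 0.20 that did not pass (0.126). Of 15 ERBB pathway genes 2 were lower (13.3%) and 1 higher (6.67%). GAB1, an adaptor gene, measured 63.2, 54.5 and 57.8 RPM with siRNA 1, 36.6, 41.4 and 39.2 RPM with siRNA 2 and 62.04, 50.5 and 58.5 RPM in control, with separate groups (-0.57, 0.00227). PIK3CB, a PI3-kinase catalytic subunit gene, was higher by 0.40 (control 129 ± 18.9 RPM) and lost the call without siRNA 2 replicate 2 (0.0846).

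Of 18 tight junction and desmosome genes 5 were lower (27.8%, beside 6.55% over all genes) and 0 higher, and 0 passed without the block. TJP1, the gene of the scaffold ZO-1, measured 37.3, 32.9 and 26.7 RPM in the control, 52.5, 38.9 and 27.8 RPM in the siRNA 1 and 30.6, 25.00 and 15.8 RPM in the siRNA 2 libraries. Replicate 1 was the highest and replicate 3 the lowest in each group. The groups overlapped, and siRNA 2 was lower in each pair (-0.72, limma adjusted p = 0.000826, 0.142 without the block). CLDN12 (-0.61, control 16.3 ± 1.34 RPM) lost its call without siRNA 1 replicate 3 (0.0725), CLDN1 (-0.64, control 7.74 ± 1.92 RPM) without siRNA 1 replicate 1 (0.112) or siRNA 2 replicate 1 (0.0797) or 2 (0.0738), the cingulin gene CGN (-0.60, control 8.11 ± 0.778 RPM) without siRNA 1 replicate 1 (0.178) or 3 (0.0706) or siRNA 2 replicate 1 (0.0791) or 3 (0.105), and F11R (-0.27, control 328 ± 9.29 RPM) without control replicate 3 (0.0513) or siRNA 1 replicate 1 (0.0819), 2 (0.118) or 3 (0.171) or siRNA 2 replicate 1 (0.0858) or 2 (0.117). F11R also lost the call with median-of-ratios (0.0899) or TMM scaling (0.0789), by edgeR (0.088) and by DESeq2 (0.0904). By DESeq2 CLDN1 (0.0619) and CGN (0.0976) lost it too.

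Secretory pathway genes were lower in part. Of 25 chaperone and unfolded protein response genes of the endoplasmic reticulum 5 were lower and 0 higher (3 without the block; median -0.17). HSP90B1 (chromosome 12, 103930107 to 103953645), the gene of the resident HSP90 chaperone, measured 1997, 2131 and 2097 RPM in the control, 1909, 2109 and 2004 RPM in the siRNA 1 and 1068, 1175 and 1392 RPM in the siRNA 2 libraries. The siRNA 1 and control libraries shared a range and the siRNA 2 libraries lay below (-0.74, limma adjusted p = 5.48e-05). CRELD2 differed by -0.56 (control 78.1 ± 4.22 RPM) and EDEM1, a gene of mannose trimming and degradation, by -0.53 (control 93.6 ± 4.17 RPM). TRIB3, a stress-induced pseudokinase gene, differed by -0.57 (control 520.5 ± 51.8 RPM, adjusted p = 0.000541, 0.074 without the block). XBP1 (-0.31, control 1205 ± 139 RPM) lost the call without siRNA 1 replicate 1 (0.188) or 3 (0.0602) or siRNA 2 replicate 1 (0.107) or 2 (0.0681). XBP1 also lost it with median-of-ratios (0.0622) or TMM scaling (0.0545) and by edgeR (0.0521). Of 23 cholesterol synthesis genes 4 were lower (17.4%, beside 6.55% over all genes) and 0 higher. Of these, 0 passed without the block or without siRNA 1 replicate 3. Without siRNA 2 replicate 1 or 3 the count was 2. Of the 23, 20 were negative in sign on the values as deposited (median -0.19, beside -0.04 over all genes tested). With median-of-ratios scaling the median over all genes was 0.003, so sign counts depend on the scaling.

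The 3 higher genes with a difference over 1 were CRYAB, MCAM and FAM180A. FAM180A lay under the level of 10 RPM set for named genes, at 0.773, 1.16 and 0.654 RPM with siRNA 1, 4.59, 2.81 and 2.67 RPM with siRNA 2 and 3.05, 2.56 and 0.591 RPM in control (1.21, limma adjusted p = 0.00545). CRYAB (chromosome 11, 111908565 to 111923722), a small heat shock protein gene, measured 4.87, 6.63 and 8.08 RPM in the control, 4.54, 6.29 and 9.15 RPM in the siRNA 1 and 15.5, 26.9 and 17.9 RPM in the siRNA 2 libraries. The siRNA 1 and control ranges nearly coincided and every siRNA 2 library lay above them, a difference of 1.47 (95% interval 1.10 to 1.84, limma adjusted p = 6.87e-05). MCAM (chromosome 11, 119308529 to 119321521), a cell adhesion molecule gene, measured 9.16, 8.24 and 11.6 RPM in the control, 7.53, 9.30 and 8.69 RPM in the siRNA 1 and 20.9, 29.8 and 15.2 RPM in the siRNA 2 libraries (1.23, 0.000756). Next in size among genes averaging 10 RPM or more was KLF11 (chromosome 2, 10042849 to 10054836), a zinc finger repressor gene that lay apart from control with each siRNA. It measured 75.5, 75.6 and 79.5 RPM in the control, 50.3, 51.2 and 52.2 RPM in the siRNA 1 and 100.0, 95.5 and 110.1 RPM in the siRNA 2 libraries. The 3 groups did not overlap, with siRNA 1 lowest and siRNA 2 highest, and the siRNAs differed by 0.98 (95% interval 0.80 to 1.16, adjusted p = 3.98e-06).

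Other higher genes had a control mean nearer siRNA 1. LMO1, a LIM domain transcription cofactor gene, measured 26.9, 34.7 and 34.6 RPM in the control, 19.5, 27.7 and 25.8 RPM in the siRNA 1 and 43.6, 47.3 and 39.97 RPM in the siRNA 2 libraries. Its control mean lay close to midway, with log2 differences from control of -0.39 for siRNA 1 and 0.44 for siRNA 2, and 0.83 between the siRNAs. HSPA14, an HSP70 family gene, differed by 0.66 (88.5, 70.3 and 94.2 RPM in the control, 68.96, 79.7 and 86.01 RPM in the siRNA 1 and 110.1, 132 and 131 RPM in the siRNA 2 libraries; limma adjusted p = 0.000872). SH2B2 (0.81, control 10.2 ± 2.37 RPM, 0.0583 without the block) and MAPK8IP2 (0.67, control 44.8 ± 9.74 RPM, 0.0828) passed with the block only. So did UNC5B (0.68, control 14.1 ± 4.09 RPM), DBN1 (0.63, control 12.6 ± 1.10 RPM) and HSPB7 (0.60, control 28.3 ± 0.918 RPM). UNC5B lost the call without siRNA 1 replicate 1 (0.0732) or 3 (0.0745) or siRNA 2 replicate 1 (0.101), DBN1 without siRNA 1 replicate 1 (0.0649) or 3 (0.0843) or siRNA 2 replicate 1 (0.0976), and HSPB7 without siRNA 1 replicate 1 (0.0932) or siRNA 2 replicate 1 (0.105) or 2 (0.103). The cytosolic heat shock list was not cytosolic throughout, as it also held HSPE1. Of its 14 tested genes, 2 were higher (14.3%, beside 2.81% over all genes) and 1 lower (7.14%, beside 6.55%). The higher were CRYAB and the mitochondrial co-chaperonin gene HSPE1 (0.46, control 126 ± 9.89 RPM), and the lower was DNAJB1 (-0.33, control 95.6 ± 5.82 RPM). DNAJB1 lost its call without control replicate 3 (0.0689) or siRNA 1 replicate 1 (0.169), 2 (0.0687) or 3 (0.195) or siRNA 2 replicate 2 (0.209) or 3 (0.141). DNAJB1 also lost it with median-of-ratios (0.0677) or TMM scaling (0.0632), by edgeR (0.0669) and by DESeq2 (0.092). HMOX1, the heme oxygenase gene, was the 1 called of 20 NRF2 and oxidative stress genes (5.0% higher). It measured 31.7, 30.9 and 27.2 RPM in the control, 49.5, 33.5 and 37.3 RPM in the siRNA 1 and 65.9, 64.4 and 46.7 RPM in the siRNA 2 libraries, with both siRNA means above control (0.55, adjusted p = 0.00733), and lost the call without siRNA 1 replicate 2 (0.0731) or siRNA 2 replicate 2 (0.0719) and without the block (0.0933).

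The next higher genes had a control mean nearer siRNA 2. ERCC6L (chromosome X, 72204657 to 72239047), a helicase gene of mitotic chromosomes, measured 20.7, 18.1 and 16.5 RPM in the control, 9.76, 8.62 and 10.1 RPM in the siRNA 1 and 21.6, 17.1 and 17.6 RPM in the siRNA 2 libraries. The siRNA 1 libraries lay below all others (0.91, limma adjusted p = 0.000303). CCP110 (chromosome 16, 19523811 to 19553408), a centriole protein gene, measured 56.7, 40.4 and 38.8 RPM in the control, 29.5, 23.8 and 28.1 RPM in the siRNA 1 and 50.8, 45.8 and 55.7 RPM in the siRNA 2 libraries (0.88). NAPG, a gene of vesicle fusion, differed by 0.85 (control 44.9 ± 5.15 RPM), the ceramide kinase gene CERK by 0.83 (control 33.3 ± 3.89 RPM), the mannosyltransferase gene DPY19L3 by 0.81 (control 40.3 ± 2.75 RPM), RCN2, a calcium-binding protein gene of the secretory pathway, by 0.71, and CBX5, the gene of heterochromatin protein HP1 alpha, by 0.70 (control 238 ± 20.7 RPM). RCN2 was at 168, 158 and 157 RPM in the control, 86.4, 104 and 106 RPM in the siRNA 1 and 161, 155 and 169 RPM in the siRNA 2 libraries. FAM63B, a deubiquitinase gene (0.69, control 16.2 ± 1.42 RPM), lost its call without siRNA 1 replicate 1 (0.068) or 3 (0.106) and FBLN2, an extracellular matrix gene (0.69, control 21.4 ± 3.40 RPM), without siRNA 1 replicate 1 (0.0593) or siRNA 2 replicate 1 (0.0675). GALNT7 (chromosome 4, 173168753 to 173323967), a gene that starts mucin-type glycans, measured 157, 152 and 163 RPM in the control, 95.9, 116 and 116 RPM in the siRNA 1 and 163, 164 and 172 RPM in the siRNA 2 libraries (0.61, adjusted p = 0.00027).

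A few cell cycle genes were higher with siRNA 2. Of 31 mitosis genes 6 were higher (19.4%, beside 2.81% over all genes) and 0 lower (1 without the block), 27 had a positive sign and the median was 0.20. CDK1, the mitotic kinase gene, measured 332, 292 and 315 RPM in the control, 296, 249 and 251 RPM in the siRNA 1 and 365, 293 and 445 RPM in the siRNA 2 libraries. The groups overlapped, but siRNA 2 was higher in each pair (0.45, limma adjusted p = 0.0086, 0.0946 without the block), and the call was lost without siRNA 1 replicate 3 (0.105). Besides ERCC6L and CDK1 the calls were the phosphatase gene CDC25B (0.35, control 245 ± 31.8 RPM), TOP2A (0.33, control 763 ± 101 RPM), the kinase gene AURKA (0.37, control 61.5 ± 14.4 RPM) and CENPF (0.33, control 175 ± 21.3 RPM). With 1 library left out, CDC25B lost the call without siRNA 1 replicate 1 (0.0689) or 3 (0.0558) or siRNA 2 replicate 1 (0.0733), TOP2A without siRNA 1 replicate 1 (0.0529), 2 (0.068) or 3 (0.0905) or siRNA 2 replicate 2 (0.0578) or 3 (0.053), AURKA without siRNA 1 replicate 1 (0.0808) or 3 (0.0897) or siRNA 2 replicate 3 (0.0738), and CENPF without siRNA 1 replicate 1 (0.212) or 3 (0.0752) or siRNA 2 replicate 1 (0.102) or 3 (0.105). Of 30 S phase genes 2 were higher and 0 lower, with 0 called without the block: the DNA ligase gene LIG1 (102, 74.9 and 93.7 RPM in the control, 76.9, 72.3 and 79.8 RPM in the siRNA 1 and 108, 93.8 and 116 RPM in the siRNA 2 libraries; 0.46, 0.00352) and E2F1 (0.40, control 102 ± 17.9 RPM, lost without siRNA 1 replicate 2 (0.0502)). The share of the S phase list that was higher was 6.67%. Against control the median mitosis gene was at -0.15 with siRNA 1 and 0.02 with siRNA 2.

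**Figure D5:**
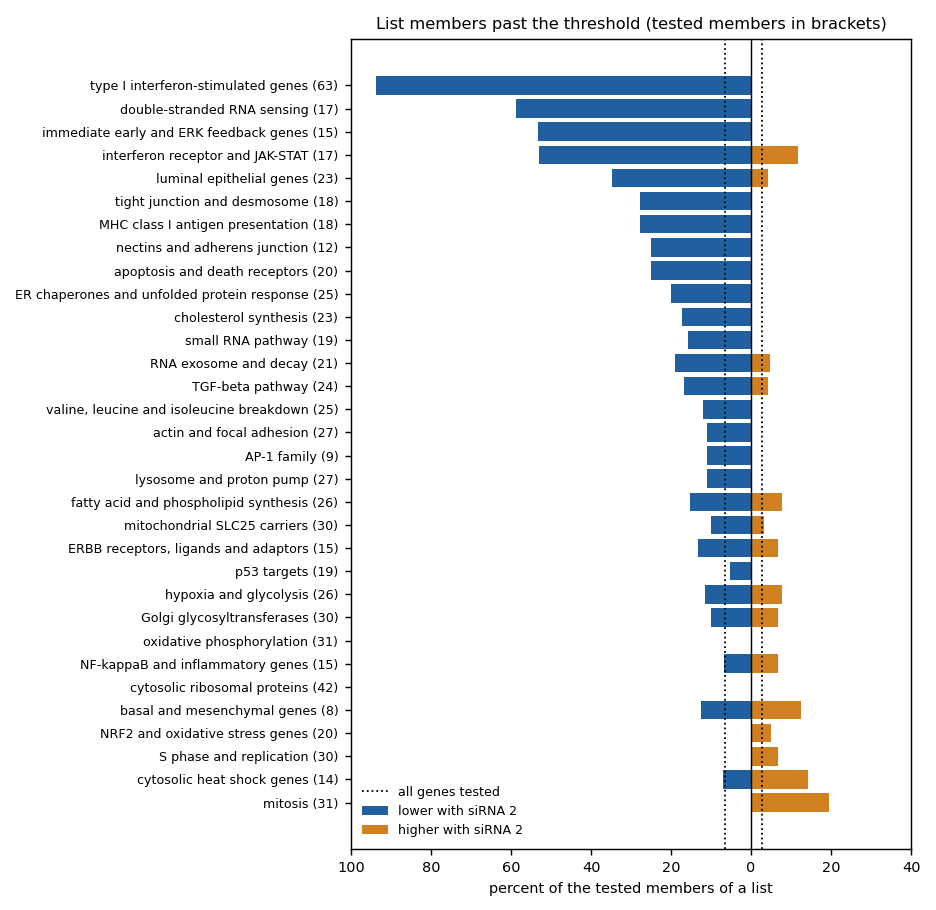
Percent of the tested members of each list (tested number in brackets) that were lower (blue, left) or higher (orange, right) with siRNA 2 in limma with the replicate block; dotted lines are the shares over all genes tested, 6.55% lower and 2.81% higher. The interferon list stands farthest left, the mitosis list farthest right, and ribosomal protein and oxidative phosphorylation genes have no bar; the leukocyte and the fibroblast and endothelial lists are not drawn.

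Other lists had few calls. Cytosolic ribosomal protein genes (0 of 42 called; median 0.03) and oxidative phosphorylation genes (0 of 31; 0.06) had no member past the threshold. Their members with the smallest adjusted p were RPL32 (-0.27, control 735 ± 103 RPM, limma adjusted p = 0.0668) and RPL24 (0.24, control 380.0 ± 17.4 RPM, adjusted p = 0.0968), NDUFA4 (0.32, control 825 ± 59.2 RPM, adjusted p = 0.0614) and ATP5D (-0.25, control 113 ± 8.50 RPM, adjusted p = 0.104). At an unadjusted p under 0.05 each list had 4 members. By edgeR and by DESeq2 0 ribosomal genes passed, and 1 oxidative phosphorylation gene was higher by each. Of 19 p53 target genes 1 was lower, MDM2 (155, 131 and 137 RPM in the control, 127, 135 and 126 RPM in the siRNA 1 and 98.6, 105 and 90.4 RPM in the siRNA 2 libraries; -0.40, adjusted p = 0.00803), lost without siRNA 1 replicate 2 (0.0522) or 3 (0.0609). The p53 share lower was 5.26%, beside 6.55% over all genes tested. Of 8 basal and mesenchymal genes 1 was higher (12.5%), MCAM, and 1 lower (12.5%), KRT17 (-1.23, control 1.52 ± 0.751 RPM, lost without siRNA 1 replicate 1 (0.25) or siRNA 2 replicate 1 (0.18) or 3 (0.084)). The tested leukocyte marker, CSF1R (0.46, control 8.46 ± 1.87 RPM, adjusted p = 0.12, unadjusted p under 0.05), and the 2 tested fibroblast and endothelial markers, COL1A1 (-0.06, control 4.50 ± 0.905 RPM, adjusted p = 0.896) and CDH5 (-0.23, control 7.38 ± 2.38 RPM, adjusted p = 0.459), had 0 calls by limma, edgeR and DESeq2, and 0 of the latter pair passed unadjusted. Of the called genes, 288 of the 314 higher and 589 of the 731 lower belonged to none of the 34 lists.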

How the data were processed

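The authors deposited 1 table of RPM values per gene (reads scaled to the library's total), made from targeted amplicon sequencing (Ion AmpliSeq Transcriptome, 1 amplicon per gene, 100 ng total RNA per library, per the labels' protocols). The submitters' processing notes name hg19; aligner and counter: not given in the sources used here. An amplicon reads a short stretch of a gene, so close paralogs and, as use of strand is not stated, antisense genes are uncertain. The deposited RPM values stepped in single reads for 100% of entries (within 0.1 read), which gave whole reads for edgeR 4.0.16 and DESeq2 1.42.0 as alternatives (413 higher and 610 lower genes by edgeR).

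The main fit was limma 3.58.1 (R 4.3.3, trended variance) on log2(RPM + 1) over all 9 libraries, with group and replicate number as terms, for 11157 genes averaging 1 RPM or more in the 6 PVRL4 siRNA libraries. P-values were adjusted by Benjamini-Hochberg over all genes tested, with a threshold of 0.05, and intervals are 95%. The replicate block was used because same-numbered libraries deviated together: the correlation of deviations from group means was 0.252 to 0.414 over 9 same-number pairs and -0.339 to -0.0280 over 18 others, and 9 of 9 libraries correlated best with their own number. The labels do not say that replicates were separate cultures: p-values then rest on a spread among libraries that may be technical.

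Named genes were PVRL4, the 15 higher and 15 lower genes of largest difference (mean of at least 10 RPM, same sign in 3 pairs, no overlap), the same rule for 10 genes on each side of control outside 4 interferon-related lists, and up to 6 called members per list. Separate siRNA groups were thus a condition for naming genes by size of difference, and not a result for them. The members and the 34 lists were chosen with earlier results of these data known. A few genes that met these rules are not reported here. Gene positions are from GENCODE v29 (GRCh38), and promoters from RefSeq. Alternatives were pseudocounts of 0.1 and 5, no filter, a filter of 5 RPM, other scalings, no replicate block, the 6 libraries alone, no trend, edgeR, DESeq2 and each library left out.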

Additional observations from a re-analysis of the deposited data

How the results depend on the processing

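Without the replicate block, 66 genes were higher and 276 lower with siRNA 2, against 314 and 731 in the paired fit, and the lists had 3 lower immediate early and ERK feedback genes, 1 higher mitosis gene and 1 lower luminal gene. Of the 155 named genes past the threshold, 78 stayed past it without the block, 114 without a filter, 104 without a trend and 133 to 154 under the other settings, and 0 changed sign. With no filter on low values 163 genes were higher and 443 lower, and without a trend 127 and 433. DESeq2 called 475 lower. Leaving out 1 library gave 124 to 284 higher and 381 to 684 lower genes. The named genes whose calls were lost with median-of-ratios and with TMM scaling included HLA-E, XBP1, TFAP2A, ERBB2, F11R, DNAJB1 and CYR61.

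Of the immediate early and ERK feedback genes 8 were lower, against 5 with no filter, 4 with quantile normalization, 5 in the 6 siRNA libraries alone, 4 without a trend and 5 by DESeq2. Leaving out 1 library gave 3 to 8, with 3 to 5 without siRNA 1 replicate 1 or 3 or siRNA 2 replicate 1 or 3. Of the mitosis genes 6 were higher, against 3 with no filter and 1 without a trend. Leaving out 1 library gave 1 to 6, with 1 to 3 without siRNA 1 replicate 1 or 3 or siRNA 2 replicate 3. Of the luminal genes 8 were lower, against 4 with no filter, median-of-ratios scaling, TMM scaling, no trend and edgeR, and 5 by DESeq2. Leaving out 1 library gave 5 to 8, with 5 without siRNA 1 replicate 2 or 3 or siRNA 2 replicate 1 or 2. The interferon-stimulated list had 51 to 62 lower members with 1 library left out.

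The PVRL4 difference was -0.60 with no filter, no replicate block and the 6 siRNA libraries alone, -0.33 with a pseudocount of 5, -0.47 with quantile normalization and -0.71 by edgeR and DESeq2, and missed the threshold in each. It was -0.70 to -0.48 with 1 library left out. Signs changed for genes that had not passed: with quantile normalization COL1A1 was 0.065, FOS 0.027 and FOSL2 0.0036. With 1 library left out COL1A1 ranged from -0.24 to 0.15, FOS from -0.41 to 0.0022, FOSL2 from -0.19 to 0.010 and PVRL1 from -0.068 to 0.21. The cause of these changes was not tested.

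The depth of 10017130 to 10707777 reads makes 3 reads equal to 0.280 to 0.299 RPM, so differences of genes listed at or below that level were not detectable. With 3 libraries a group an exact permutation test of a single gene cannot go below p = 0.1.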

Other observations

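The fatty acid and phospholipid, SLC25 carrier, amino acid breakdown and glycosyltransferase lists had 3 or 4 lower members each. Their counts are read against 6.55% lower and 2.81% higher over all genes tested. Of 26 fatty acid and phospholipid genes 4 were lower (15.4%) and 2 higher (7.69%) with siRNA 2. The lower genes were 1 without siRNA 1 replicate 3 and 2 without siRNA 1 replicate 2 or siRNA 2 replicate 2; the higher were 0 without siRNA 1 replicate 1 or 2 or siRNA 2 replicate 1, and 1 without siRNA 2 replicate 3. FASN, the fatty acid synthase gene, measured 1255, 1376 and 1087 RPM in the control, 1147, 1289 and 1141 RPM in the siRNA 1 and 1026, 819 and 812 RPM in the siRNA 2 libraries (-0.44, limma adjusted p = 0.00732, 0.0625 without the block), and its call was lost without siRNA 1 replicate 2 or 3 (0.0695) or siRNA 2 replicate 2 (0.0744). Of 30 mitochondrial SLC25 carrier genes 3 were lower (10.0%) and 1 higher (3.33%), shares close to those over all genes. The higher call was lost without control replicate 3, any 1 siRNA 1 library or siRNA 2 replicate 1 or 2. Among the lower were SLC25A24 and SLC25A23, carrier genes of the same ATP-Mg family (-0.65 for SLC25A23; 64.7, 74.7 and 75.9 RPM in the control, 57.4, 68.7 and 69.1 RPM in the siRNA 1 and 43.1, 49.03 and 32.2 RPM in the siRNA 2 libraries). Of 25 genes of valine, leucine and isoleucine breakdown 3 were lower (12.0%), with HIBADH the largest. That count was 1 without siRNA 1 replicate 1 or 2 or siRNA 2 replicate 2. Of 30 Golgi glycosyltransferase genes 3 were lower (10.0%) and 2 higher (6.67%); leaving out 1 library gave 3 lower each time, and 1 higher without any 1 siRNA 1 library or siRNA 2 replicate 1 or 2. B4GALT4, a galactosyltransferase gene, measured 17.8, 19.9 and 16.1 RPM in the control, 15.6, 15.5 and 13.8 RPM in the siRNA 1 and 7.09, 8.62 and 6.77 RPM in the siRNA 2 libraries, and its siRNA 2 libraries lay below its siRNA 1 libraries (-0.92, adjusted p = 0.000271).

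The lists that follow are read against the same shares over all genes. Of 24 TGF-beta pathway genes 4 were lower (16.7%; 2 without siRNA 1 replicate 1) and 1 higher (4.17%; 0 without any 1 siRNA 1 library or siRNA 2 replicate 1 or 3). ID1, a target gene of BMP signalling, measured 26.4, 12.03 and 10.2 RPM in the control, 42.98, 13.8 and 9.99 RPM in the siRNA 1 and 16.7, 8.53 and 4.96 RPM in the siRNA 2 libraries. It was lower with siRNA 2 in each pair (-0.95, limma adjusted p = 0.00097, 0.372 without the block). Of 26 hypoxia and glycolysis genes 3 were lower (11.5%) and 2 higher (7.69%), with the peptide hormone gene ADM the largest (6.01, 10.9 and 3.75 RPM in the control, 13.5, 11.7 and 8.31 RPM in the siRNA 1 and 5.79, 7.07 and 3.43 RPM in the siRNA 2 libraries; -0.94, 0.131 without the block). The lower genes were 1 without siRNA 1 replicate 1 or 3 or siRNA 2 replicate 2 or 3, and the higher 1 without any 1 siRNA 1 library or siRNA 2 replicate 2 or 3. Of 21 RNA exosome and decay genes 4 were lower (19.0%; 1 without siRNA 1 replicate 3 and 2 without siRNA 1 replicate 1 or siRNA 2 replicate 1 or 2) and 1 higher, the deadenylase gene CNOT8 (10.3, 8.34 and 7.29 RPM in the control, 5.50, 4.07 and 6.91 RPM in the siRNA 1 and 9.68, 10.6 and 9.45 RPM in the siRNA 2 libraries; 0.77, adjusted p = 0.0109), whose call was lost without siRNA 1 replicate 2 (0.0799) or siRNA 2 replicate 2 (0.09). Of 19 small RNA pathway genes 3 were lower (15.8%; 1 without siRNA 1 replicate 1 or 3). Among them XRN1, an exonuclease gene, differed by -0.56 (control 32.5 ± 4.83 RPM) and kept its call with each library left out, while MOV10, an RNA helicase gene (-0.75, control libraries 13.3, 19.8 and 11.9 RPM), lost it without siRNA 1 replicate 1 (0.0536) or 3 (0.0523). Of 27 lysosome and proton pump genes 3 were lower (11.1%; 1 without siRNA 1 replicate 1 or 3 or siRNA 2 replicate 3), with the proton pump subunit gene ATP6V1A the largest (32.4, 32.02 and 28.8 RPM in the control, 36.7, 34.8 and 28.9 RPM in the siRNA 1 and 19.6, 23.4 and 16.7 RPM in the siRNA 2 libraries; -0.73). Of 27 actin and focal adhesion genes 3 were lower (11.1%; 1 without siRNA 1 replicate 1 or siRNA 2 replicate 1 or 2), VCL, CYR61 (lost without siRNA 1 replicate 1 (0.212) or 2 (0.091) or siRNA 2 replicate 1 (0.124) or 2 (0.19)) and the small GTPase gene RHOB (236, 280.0 and 194 RPM in the control, 306, 345 and 209 RPM in the siRNA 1 and 208, 196 and 114 RPM in the siRNA 2 libraries; -0.74, 0.0946 without the block).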
